A study of Homo sapiens with 24 samples.

Results

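The genes described here are 50 genes of G2 phase and mitosis, out of 21386 genes in the count tables. They are cyclins, kinases, kinesins, kinetochore proteins and cytokinesis factors, and were chosen with earlier results of these data known. They were found by symbol after the Ensembl identifiers of the tables had been matched to GENCODE 29, and all 50 were present and passed the filter on low counts in every comparison. RNA-seq had been done on A375 cells, a human melanoma line, and A549 cells, a human lung adenocarcinoma line, with 12 libraries for each. In each line there were 4 groups of 3 biological replicates. Cells of the group shMCM7 Dox carried a doxycycline-inducible short hairpin RNA (shRNA) against MCM7 and had received 1 μg/ml Dox for 72 hours, whereas the group shMCM7 noDox carried the same construct without Dox. The groups parental Dox and parental noDox were untransduced cells of the same line with and without Dox. All groups had been arrested by a double thymidine block, which stops cells at the border of G1 and S phase. The shMCM7 cells were puromycin-resistant populations rather than clones, in which a lentiviral vector drove the shRNA from a Dox-regulated U6 promoter, and the parental cells carried no control shRNA.

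In cycling cells, transcripts of these genes are low in G1, build up from S phase on and peak in G2 and mitosis. Many of their promoters hold a cell cycle genes homology region (CHR), an element bound by the MuvB complex. MuvB joins p130 and E2F4 in the repressive DREAM complex of resting and G1 cells, and joins B-MYB and then FOXM1 to switch the same genes on later in the cycle. CCAAT boxes, bound by NF-Y, often lie just upstream of the CHR. Their products condense and capture chromosomes, build the spindle, delay anaphase until all kinetochores are attached and split the cell.

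The shRNA was directed against the sequence CAGAGGAGGATTTCTACGAAA of the MCM7 coding sequence, shown because it defines the knock-down. In the transcript MCM7-201 it joins the last 3 bases of exon 8 (chr7:100097834-100097836, GRCh38, minus strand) to the first 18 bases of exon 9 (chr7:100097728-100097745). None of the 427 annotated transcripts of the 50 genes held this 21-base sequence, which does not bear on matches of the seed alone.

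Promoter windows of 300 bases (250 before to 50 after the transcription start, RefSeq, GRCh38.p14) were at hand for 43 of the 50 genes. The CHR sequence TTTGAA, searched on both strands, occurred in 30 of the 43 windows (69.8%), against 12.4% of the 21028 windows of all genes in the count tables. In 24 of the 43 windows (55.8%) it lay within 40 bases of the transcription start, a distance chosen after the positions were seen, against 3.05% of all windows. The stretches below are shown because they hold this element in genes that fell after MCM7 knock-down and, for comparison, in 3 genes whose level did not pass the test. Capitals mark each CHR in the stretch, which reads TTCAAA where it lies on the other strand, and ANLN and HMMR hold 2 side by side, of which the distance below is that of the copy nearer to the start. Each stretch is 30 bases long and is written in the direction of transcription.
PLK1: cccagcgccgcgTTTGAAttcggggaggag
KIF4A: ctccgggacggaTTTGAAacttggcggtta
GTSE1: ctcggagcccttTTCAAAccgaccaatcgg
ANLN: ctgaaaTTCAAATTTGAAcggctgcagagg
CCNB2: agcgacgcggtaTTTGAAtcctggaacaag
SPAG5: gcgcagagcaggTTCAAAcacagacggcgg
HJURP: gacgcaaatttgTTTGAAaggcccaatcag
CDK1: gagtataataaaTTTGAActgtgccaatgc
DLGAP5: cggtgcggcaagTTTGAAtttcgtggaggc
KIF11: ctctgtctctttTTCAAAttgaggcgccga
KIF23: ctgattggcccgTTTGAAatgcgccaggcg
HMMR: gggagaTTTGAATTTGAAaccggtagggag
The PLK1 stretch lies at chr16:23678848-23678877 (plus strand), with the CHR 29 bases before the transcription start. In KIF4A (chrX:70290058-70290087, plus strand) the distance was 34 bases, in GTSE1 (chr22:46296832-46296861, plus strand) 26 bases, in ANLN (chr7:36389830-36389859, plus strand) 20 bases and in CCNB2 (chr15:59105105-59105134, plus strand) 29 bases. HJURP (chr2:233854629-233854658, minus strand) and CDK1 (chr10:60778158-60778187, plus strand) had theirs farther upstream, at 111 and 161 bases. In SPAG5 (chr17:28599005-28599034, minus strand) and DLGAP5 (chr14:55191565-55191594, minus strand) the nearest CHR began 3 bases after the start. The 3 genes set beside them carried the CHR too, 28 bases before the start in KIF11 (chr10:92593090-92593119), 55 in KIF23 (chr15:69414282-69414311) and 22 in HMMR (chr5:163460598-163460627), all on plus-strand genes.

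Library totals lay between 146656792 and 283721575 counts for A375 and between 17911338 and 23452823 for A549. Gene positions are those of GENCODE 29 on GRCh38. Levels are given as CPM, the count scaled to the size of the library with edgeR's TMM factors within a line. Of the markers of the lines, SOX10 was at 501 to 677 CPM in A375 and at 0 in all A549 libraries. KRT7 was at 1708 to 2332 CPM in A549 and at 13.9 to 25.5 CPM in A375. The melanoma marker MITF did not separate the lines, at 26.7 to 45.1 CPM in A375 and 35.7 to 51.9 CPM in A549. The pigment cell genes MLANA, TYR and DCT were near 0 in A375 and the lung genes NKX2-1 and SFTPB near 0 in A549. MCM7, the targeted gene, was at 76.8, 76.4 and 77.2 CPM in the induced A375 shMCM7 libraries and at 131, 353 and 359 in the uninduced ones. The uninduced library 1 thus stood apart from its group. Parental A375 cells had 369.8, 355 and 357 CPM with Dox and 352, 342 and 352 without, and the log2 fold change of induced against parental Dox cells was −2.23 ± 0.048 (SE, adjusted p = 5.28e-08). In A549, MCM7 was low in 3 libraries with 3 different labels, shMCM7 Dox 3 (95.3 CPM), shMCM7 noDox 2 (99.7 CPM) and parental noDox 2 (88.6 CPM), and lay at 299 to 339 CPM in the other 9. The A549 labels therefore do not match the MCM7 counts, and results from that line are given by label and by library.

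Per kilobase of annotated exon, these genes were among the more abundant ones in the arrested cells. No library came from cells without the arrest, so its effect on these levels was not tested. In parental A375 cells without Dox their median level was 19.9 CPM per kb, above the level of 83.9% of the genes tested, whose median was 4.19. The highest was CKS2, which encodes a subunit of cyclin-dependent kinases, at 88.8 CPM per kb, and the lowest CDC25C, which encodes a phosphatase that activates CDK1, at 3.55. In A549 the median was 19.9 CPM per kb as well, above 82.3% of the genes tested, with a range from 3.39 for CENPE to 186 for CKS2.

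The first comparison asked what inducing the MCM7 shRNA did to these genes in A375. Of the 50 genes, 49 had a lower fitted level in shMCM7 Dox than in shMCM7 noDox, and 16 fell by at least 1.5-fold with a p-value under 0.01 and a false discovery rate (FDR) under 0.05, the limits used for a call. Among all 16087 genes tested, 6.45% were called lower. None of the 50 was called higher by edgeR or DESeq2, against 5.58% of all genes by edgeR. The median log2 fold change of the 50 genes was −0.51, against 0.0045 for all genes tested. At an FDR under 0.05 without the fold limit, 43 of the 50 were lower (22.4% of all genes), and all 43 with an unadjusted p under 0.05 were lower. Of all 16087 genes, 8288 had such a p in either direction. KIF2C, CCNB1, PLK1, CENPE and FOXM1 had the 5 largest decreases, which ranged from −1.19 to −0.82 on the log2 scale. In the library of the uninduced group with low MCM7, the median difference from parental noDox over the 50 genes was −0.051 on the log2 scale. It was −0.53, −0.41 and −0.57 in the induced libraries and −0.08 to 0.035 over all 9 libraries that were not induced. Among those 9, the library with low MCM7 had the lowest KIF2C (111 CPM) and CCNB1 (116 CPM). The highest induced values of these 2 genes were 55.8 and 75.2 CPM. For PLK1, CENPE and FOXM1 that library was not the lowest of the 9. Without that library, 18 of the 50 genes were called lower, and the share of all genes in that fit is not given here. RNA of whole cultures was measured, so fewer cells in G2 or mitosis and less RNA of these genes per cell cannot be told apart from these counts. By flow cytometry, the paper reports that nearly all cells were in G1 after the block. It also reports slightly more G1 cells after MCM7 depletion, but states this before it introduces the block and not for the arrested cells in particular.

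**Figure D1:**
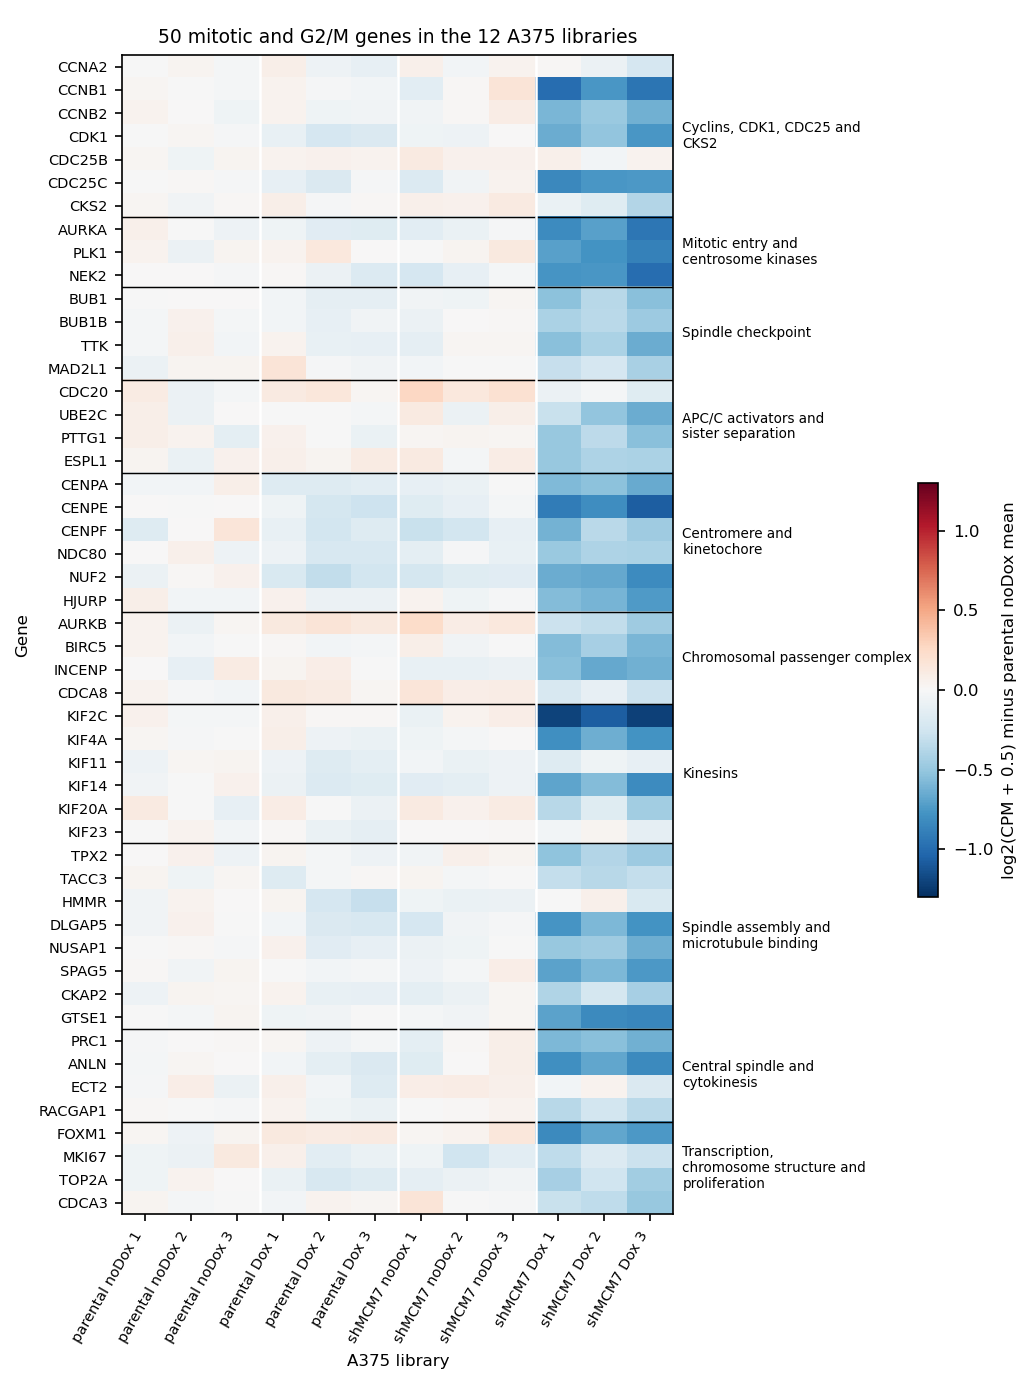
Each row is 1 of the 50 genes, ordered by role, and each column 1 of the 12 A375 libraries. The colour gives log2(CPM + 0.5) minus the mean of the 3 parental noDox libraries, on a scale where 0 is white, and the 3 induced shMCM7 libraries at the right are blue in most rows, while CDC25B, KIF11, KIF23, HMMR and ECT2 are near white.

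Among the cyclins, CDK1 and its regulators, 4 of 7 genes were called lower (6.45% of all genes). CCNB1 (ENSG00000134057, chr5:69167010-69178245) encodes cyclin B1, the partner with which CDK1 drives entry into mitosis. It was at 64.0, 75.2 and 65.8 CPM in the induced shMCM7 libraries, 116, 129 and 143 in the uninduced ones, 131, 126 and 125 in parental cells with Dox and 130.0, 127 and 125 in parental cells without Dox. The induced libraries were well apart from the other 9, and the log2 fold change was −0.92 ± 0.087 (SE, adjusted p = 8.51e-05). CCNB2 (ENSG00000157456, chr15:59105078-59125045), the second B-type cyclin, was at 31.8, 34.4 and 31.0 CPM in the induced shMCM7 libraries, 46.6, 48.8 and 51.5 in the uninduced ones, 49.9, 46.2 and 46.7 in parental cells with Dox and 49.9, 48.3 and 46.4 in parental cells without Dox. It lay just inside the fold limit, at −0.60 ± 0.063 (SE, adjusted p = 0.000139), and was called in 3 of the 6 fits that left out a library. CDK1 itself was at 63.5 to 75.1 CPM in the induced libraries and 91.9 to 109 in the other 9, with a log2 fold change of −0.60 ± 0.065 (SE, adjusted p = 0.000163), and was called in 4 of those 6 fits. CDC25C, at 6.40, 6.81 and 6.84 CPM against 10.3 to 12.2 in the others, changed by −0.77 ± 0.083 (SE, adjusted p = 0.00015). The other 3 behaved differently. CKS2 had a log2 fold change of −0.29 ± 0.076 (SE, adjusted p = 0.0141), under the fold limit. CCNA2, which encodes the cyclin A2 that serves CDK2 in S phase and CDK1 in G2, was at 56.1 to 66.2 CPM in the induced libraries, overlapping the 60.7 to 69.2 of the others. CDC25B, a phosphatase that starts CDK1 activation at the centrosome, overlapped as well, at 191 to 205 against 188 to 212 CPM. The 3 cyclins therefore had different values, with log2 fold changes of −0.12 for CCNA2 (adjusted p = 0.164), −0.60 for CCNB2 and −0.92 for CCNB1, although the difference between genes was not tested.

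All 3 kinases of mitotic entry and the centrosome were called lower (6.45% of all genes). PLK1 (ENSG00000166851, chr16:23677656-23690367) encodes Polo-like kinase, which acts in centrosome maturation, mitotic entry and cytokinesis. It was at 52.9, 50.2 and 46.7 CPM in the induced shMCM7 libraries, 86.4, 88.3 and 94.7 in the uninduced ones, 89.2, 95.3 and 86.5 in parental cells with Dox and 89.0, 81.9 and 88.6 in parental cells without Dox. The lowest of the 9 other libraries still exceeded the highest induced one, and the log2 fold change was −0.85 ± 0.063 (SE, adjusted p = 3.9e-05). AURKA (ENSG00000087586, chr20:56369389-56392337) encodes Aurora A, which activates PLK1 and organizes spindle poles. Its level was 36.7, 39.8 and 33.8 CPM in the induced shMCM7 libraries, 59.1, 61.5 and 64.7 in the uninduced ones, 62.8, 59.0 and 58.3 in parental cells with Dox and 68.4, 65.0 and 62.3 in parental cells without Dox. The induced mean was 59.5% of the uninduced mean, with a log2 fold change of −0.75 ± 0.069 (SE, adjusted p = 8.03e-05). NEK2, the kinase that lets centrosomes separate, was at 17.9 to 21.0 CPM in the induced libraries and 30.8 to 36.4 in the other 9, a change of −0.73 ± 0.08 (SE, adjusted p = 0.000163).

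The kinesins spanned the widest range of the 10 groups by role, and 2 of 6 were called lower (6.45% of all genes). KIF2C (ENSG00000142945, chr1:44739818-44767767) encodes MCAK, a kinesin that takes microtubules apart at centromeres and corrects faulty attachments. It was at 50.9, 55.8 and 50.6 CPM in the induced shMCM7 libraries, 111, 121 and 125 in the uninduced ones, 124, 119 and 119 in parental cells with Dox and 122, 116 and 115 in parental cells without Dox. With an induced mean at 44.0% of the uninduced mean it had the largest decrease of the 50 genes, at −1.19 ± 0.065 (SE, adjusted p = 3e-05). KIF4A (ENSG00000090889, chrX:70290090-70420832), a chromosome-bound kinesin that works on the central spindle, was at 49.99, 56.01 and 50.8 CPM in the induced shMCM7 libraries, 84.0, 85.8 and 87.6 in the uninduced ones, 92.0, 83.4 and 82.5 in parental cells with Dox and 88.7, 86.5 and 87.0 in parental cells without Dox. The groups did not overlap, and the log2 fold change was −0.72 ± 0.058 (SE, adjusted p = 5.31e-05). KIF14 and KIF20A, both needed for cytokinesis, had log2 fold changes of −0.58 and −0.42 (adjusted p = 0.00024 and 0.00188), under the fold limit. KIF11, the motor that pushes spindle poles apart, was at 113, 122 and 118 CPM in the induced libraries, overlapping the 113 to 131 of the others, and KIF23, the centralspindlin motor, at 91.3, 95.3 and 86.1 CPM against 85.8 to 96.1. Their log2 fold changes were −0.045 ± 0.05 (SE, adjusted p = 0.49) and −0.045 ± 0.053 (SE, adjusted p = 0.516). Within this family 4 of 6 genes were thus lower at an FDR under 0.05 (22.4% of all genes), and KIF11 and KIF23 overlapped the other libraries.

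**Figure D2:**
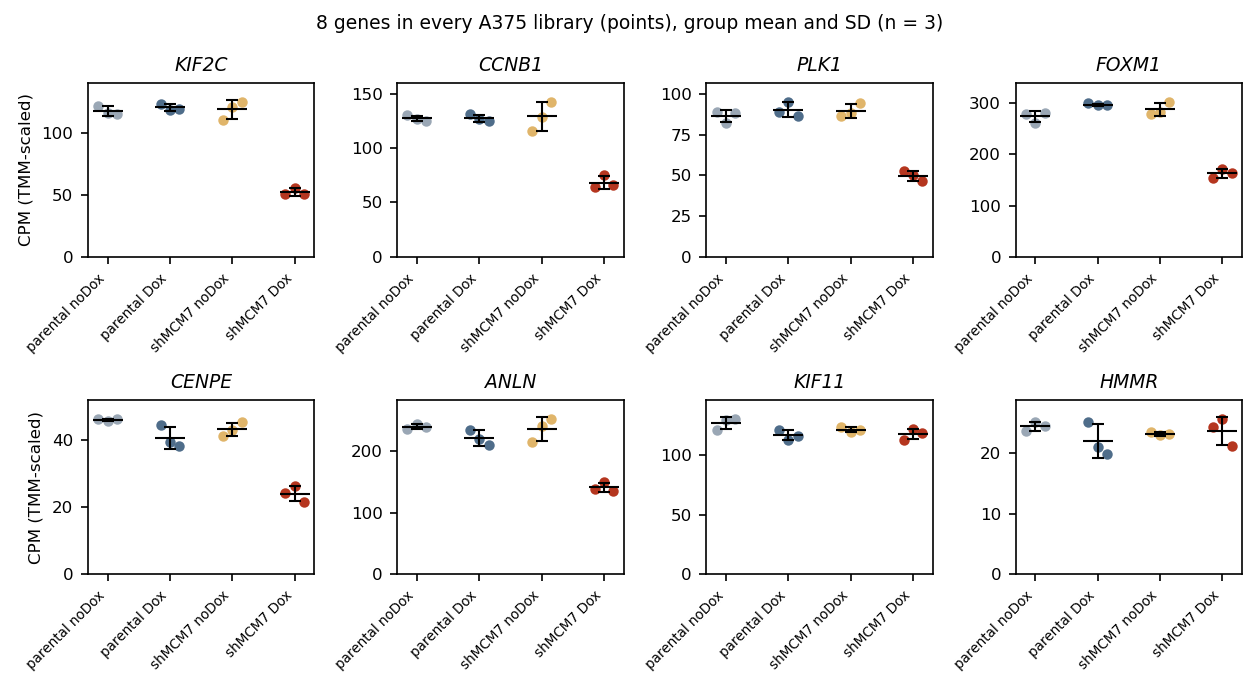
Points are the CPM values of single A375 libraries for 8 genes on axes that start at 0, in the order parental noDox, parental Dox, shMCM7 noDox and shMCM7 Dox; bars give the group mean and SD (n = 3). The 3 induced libraries of KIF2C lie at 50.6 to 55.8 CPM, below the 111 to 125 CPM of the other 9, whereas those of KIF11 and HMMR overlap the others.

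At the centromere and kinetochore, all 6 genes were lower at an FDR under 0.05 (22.4% of all genes) and 2 were called (6.45%). CENPE (ENSG00000138778, chr4:103105806-103198409) encodes the kinetochore motor that brings chromosomes to the metaphase plate. It was at 24.3, 26.2 and 21.7 CPM in the induced shMCM7 libraries, 41.4, 43.0 and 45.4 in the uninduced ones, 44.5, 39.4 and 38.3 in parental cells with Dox and 46.2, 45.9 and 46.4 in parental cells without Dox. Induced libraries were separate from the rest, and the change was −0.85 ± 0.076 (SE, adjusted p = 7.4e-05). HJURP (ENSG00000123485, chr2:233833416-233854566), the chaperone that deposits the centromeric histone CENP-A, was at 38.7, 37.5 and 34.1 CPM in the induced shMCM7 libraries, 59.1, 55.1 and 56.5 in the uninduced ones, 59.5, 54.4 and 54.4 in parental cells with Dox and 60.2, 55.99 and 55.7 in parental cells without Dox. Its log2 fold change was −0.63 ± 0.062 (SE, adjusted p = 0.000102). CENPA, which encodes that histone, had −0.54 ± 0.071 (SE, adjusted p = 0.000378), NUF2 −0.54 ± 0.063 (SE, adjusted p = 0.000215), its partner in the microtubule-binding NDC80 complex, NDC80, −0.36 ± 0.059 (SE, adjusted p = 0.00126), and CENPF −0.26 ± 0.076 (SE, adjusted p = 0.0202). The same 6 genes were also lower in parental cells with Dox than without, by −0.25 (NUF2) to −0.034 (HJURP) on the log2 scale. Of these, 5 had an unadjusted p under 0.05, beside 1121 of all 15993 genes in either direction, and none passed an FDR under 0.05. When the Dox effect was tested against that in parental cells, 4 of the 6 were lower at an FDR under 0.05 (16.5% of all genes).

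All 4 spindle checkpoint genes were lower at an FDR under 0.05 (22.4% of all genes) with decreases under 1.5-fold. BUB1B (ENSG00000156970, chr15:40161023-40221136) encodes BubR1, which holds back the anaphase promoting complex, and was at 58.5, 60.9 and 55.9 CPM in the induced shMCM7 libraries, 74.2, 78.4 and 78.8 in the uninduced ones, 76.1, 72.2 and 75.4 in parental cells with Dox and 76.5, 80.8 and 76.6 in parental cells without Dox. The induced libraries were the 3 lowest, but the log2 fold change of −0.40 ± 0.054 (SE, adjusted p = 0.000441) was under the fold limit. BUB1 (ENSG00000169679, chr2:110637698-110678114), the kinase that recruits BubR1 to kinetochores, was at 34.6, 38.9 and 34.3 CPM in the induced shMCM7 libraries, 48.7, 48.3 and 50.97 in the uninduced ones, 48.9, 46.3 and 46.3 in parental cells with Dox and 49.9, 50.3 and 50.5 in parental cells without Dox. It had −0.46 ± 0.063 (SE, adjusted p = 0.000496). TTK, which encodes the kinase MPS1 at the top of the checkpoint, had −0.52 ± 0.074 (SE, adjusted p = 0.00059) and MAD2L1, which encodes the inhibitor MAD2, −0.30 ± 0.061 (SE, adjusted p = 0.00368). In each of the 4 the induced libraries were below the other 9 (21.3% of all genes).

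The 4 genes of anaphase promotion and sister separation were also lower at an FDR under 0.05 (22.4% of all genes) and under the fold limit. ESPL1 (ENSG00000135476, chr12:53268299-53293643) encodes separase, which cuts cohesin, and was at 81.6, 87.0 and 86.6 CPM in the induced shMCM7 libraries, 125, 113 and 123 in the uninduced ones, 120.3, 118 and 124 in parental cells with Dox and 118, 108 and 120.0 in parental cells without Dox. PTTG1 (ENSG00000164611, chr5:160421822-160428744), which encodes securin, the inhibitor of separase, was at 57.9, 64.2 and 55.9 CPM in the induced shMCM7 libraries, 82.9, 83.6 and 82.8 in the uninduced ones, 85.1, 81.5 and 76.6 in parental cells with Dox and 85.9, 84.4 and 74.8 in parental cells without Dox. In both genes the induced libraries were below all others, with log2 fold changes of −0.50 ± 0.057 (SE, adjusted p = 0.000185) and −0.49 ± 0.06 (SE, adjusted p = 0.000276). UBE2C, the ubiquitin-conjugating enzyme of the anaphase promoting complex, had −0.52 ± 0.089 (SE, adjusted p = 0.00151). CDC20, its mitotic activator, had −0.29 ± 0.058 (SE, adjusted p = 0.00349), and its induced libraries at 127 to 140.0 CPM overlapped the 135 to 172 CPM of the other 9.

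Chromosomal passenger genes were likewise lower by less than 1.5-fold. INCENP (ENSG00000149503, chr11:62123973-62153163), the scaffold of the complex, was at 92.1, 84.5 and 86.9 CPM in the induced shMCM7 libraries, 126, 126 and 127 in the uninduced ones, 137, 142 and 134 in parental cells with Dox and 134, 124 and 145 in parental cells without Dox. BIRC5 (ENSG00000089685, chr17:78214186-78225636), which encodes survivin, was at 52.8, 57.7 and 51.5 CPM in the induced shMCM7 libraries, 82.6, 75.6 and 77.8 in the uninduced ones, 78.9, 76.5 and 77.0 in parental cells with Dox and 80.6, 76.4 and 77.8 in parental cells without Dox. The induced libraries were the 3 lowest for both, with log2 fold changes of −0.52 ± 0.051 (SE, adjusted p = 9.62e-05) and −0.54 ± 0.061 (SE, adjusted p = 0.000185). AURKB, which encodes the kinase Aurora B, had −0.52 ± 0.064 (SE, adjusted p = 0.000273) and CDCA8, which encodes borealin, −0.32 ± 0.059 (SE, adjusted p = 0.00226). The Dox effect on AURKB in parental cells was 0.14 ± 0.051 (SE, adjusted p = 0.629), and against parental Dox cells it was lower by less than 1.5-fold, at −0.50 ± 0.058 (SE, adjusted p = 0.000144).

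Of 8 genes for spindle assembly and microtubule binding, 3 were called lower (6.45% of all genes). GTSE1 (ENSG00000075218, chr22:46296741-46330810), a microtubule plus-end protein of G2 and mitosis that also binds p53, was at 26.97, 24.6 and 24.3 CPM in the induced shMCM7 libraries, 43.1, 42.5 and 44.9 in the uninduced ones, 42.2, 42.6 and 43.7 in parental cells with Dox and 43.8, 43.2 and 44.96 in parental cells without Dox. Its induced libraries were far from the others, with a log2 fold change of −0.78 ± 0.06 (SE, adjusted p = 4.62e-05). SPAG5 (ENSG00000076382, chr17:28577565-28599279), which encodes astrin, a spindle and kinetochore protein, was at 92.4, 100.04 and 89.2 CPM in the induced shMCM7 libraries, 143, 147 and 159 in the uninduced ones, 149.7, 147 and 148 in parental cells with Dox and 151, 146 and 153 in parental cells without Dox. Its change was −0.68 ± 0.063 (SE, adjusted p = 8.26e-05). DLGAP5, which encodes the spindle-stabilizing protein HURP, was called at −0.63 ± 0.077 (SE, adjusted p = 0.00028), and in 4 of the 6 fits that left out a library. NUSAP1, TPX2, TACC3 and CKAP2 were lower at an FDR under 0.05 with log2 fold changes of −0.48, −0.48, −0.33 and −0.29. HMMR (ENSG00000072571, chr5:163460203-163491945), a spindle-pole protein known also as a hyaluronan receptor, was the one gene with a fitted value above 0. It was at 24.4, 25.7 and 21.2 CPM in the induced shMCM7 libraries, 23.5, 22.9 and 23.2 in the uninduced ones, 25.1, 21.0 and 19.8 in parental cells with Dox and 23.7, 25.2 and 24.5 in parental cells without Dox. The groups overlapped, and its log2 fold change of 0.032 ± 0.075 (SE, adjusted p = 0.753) took the opposite sign, −0.026, without the induced library 2.

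For the central spindle and cytokinesis, 1 of 4 genes was called lower (6.45% of all genes). ANLN (ENSG00000011426, chr7:36389806-36453791) encodes anillin, which ties the contractile ring to the membrane, and was at 138, 149.8 and 135 CPM in the induced shMCM7 libraries, 215, 240.0 and 252 in the uninduced ones, 234, 219.6 and 209.7 in parental cells with Dox and 236, 243 and 239.7 in parental cells without Dox. The induced libraries were apart from the rest, with −0.74 ± 0.07 (SE, adjusted p = 8.39e-05). PRC1 (ENSG00000198901, chr15:90966038-90995629), which bundles the antiparallel microtubules of the central spindle, was at 93.5, 95.9 and 90.4 CPM in the induced shMCM7 libraries, 128, 141 and 148 in the uninduced ones, 142, 134 and 137 in parental cells with Dox and 138, 141 and 141 in parental cells without Dox. At −0.58 ± 0.062 (SE, adjusted p = 0.000146) it was just outside the fold limit, on the other side of which CCNB2 and CDK1 lay. RACGAP1, of centralspindlin, had −0.33 ± 0.053 (SE, adjusted p = 0.00106). ECT2, the exchange factor that activates RhoA at the cleavage site, had −0.14 ± 0.063 (SE, adjusted p = 0.108) and overlapped between groups.

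In the last group, FOXM1 (ENSG00000111206, chr12:2857681-2877155) encodes the transcription factor that activates many genes of G2 and mitosis. It was at 154, 171 and 163 CPM in the induced shMCM7 libraries, 278, 281 and 302 in the uninduced ones, 299, 295 and 296 in parental cells with Dox and 278, 260.5 and 281 in parental cells without Dox. Its induced mean was 56.6% of the uninduced mean, with a log2 fold change of −0.82 ± 0.059 (SE, adjusted p = 3.73e-05). CDCA3 (ENSG00000111665, chr12:6844793-6852066), an adaptor for the ubiquitin-dependent loss of WEE1, was at 47.2, 45.7 and 40.8 CPM in the induced shMCM7 libraries, 64.7, 57.2 and 56.9 in the uninduced ones, 56.1, 59.6 and 58.8 in parental cells with Dox and 59.0, 56.6 and 57.4 in parental cells without Dox. It had −0.42 ± 0.074 (SE, adjusted p = 0.00175), under the fold limit. TOP2A, the topoisomerase that untangles chromosomes, had −0.30 ± 0.061 (SE, adjusted p = 0.00376). MKI67, which encodes the proliferation antigen Ki-67, was at 221, 245 and 228 CPM in the induced libraries against 232 to 304 in the other 9, with −0.11 ± 0.066 (SE, adjusted p = 0.189). It did not pass the test here, but against parental Dox cells it was lower at an FDR under 0.05, by less than 1.5-fold, at −0.21 ± 0.066 (SE, adjusted p = 0.025).

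Over all 50 genes, the induced libraries were below each of the other 9 A375 libraries in 42, against 21.3% of 16334 genes. The 8 genes that overlapped were CCNA2, CDC25B, CDC20, KIF11, KIF23, HMMR, ECT2 and MKI67. The counting settings for strand are not given in the sources used here. Of the genes called lower, FOXM1 shares 781 of its 4899 exon bases with ITFG2 on the other strand and CDC25C 293 with FAM53C, while PLK1, KIF4A, ANLN and HJURP share 8 to 78 bases, so part of their reads may belong to the neighbour.

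The second comparison asked whether Dox alone moved these genes. In parental A375 cells, edgeR called none of the 50, as it called 0% of the 15993 genes tested, and none passed an FDR under 0.05. At an unadjusted p under 0.05 there were 14 (13 by DESeq2, which also called none), beside 1121 of all genes. The median log2 fold change was −0.038, and the values ranged from −0.25 for NUF2 to 0.14 for AURKB. KIF2C had 0.03 ± 0.049 (SE, adjusted p = 0.929) and FOXM1 0.11 ± 0.049 (SE, adjusted p = 0.676) in these cells. The uninduced construct gave a like result. Between shMCM7 noDox and parental noDox, edgeR and DESeq2 called none of the 50, against 0.478% of 16093 genes called lower and 1.17% called higher by edgeR. An unadjusted p under 0.05 was found for 7 of the 50 by either tool, beside 2612 of all genes by edgeR. The median was −0.016, and PLK1, for example, had 0.052 ± 0.053 (SE, adjusted p = 0.682).

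**Figure D3:**
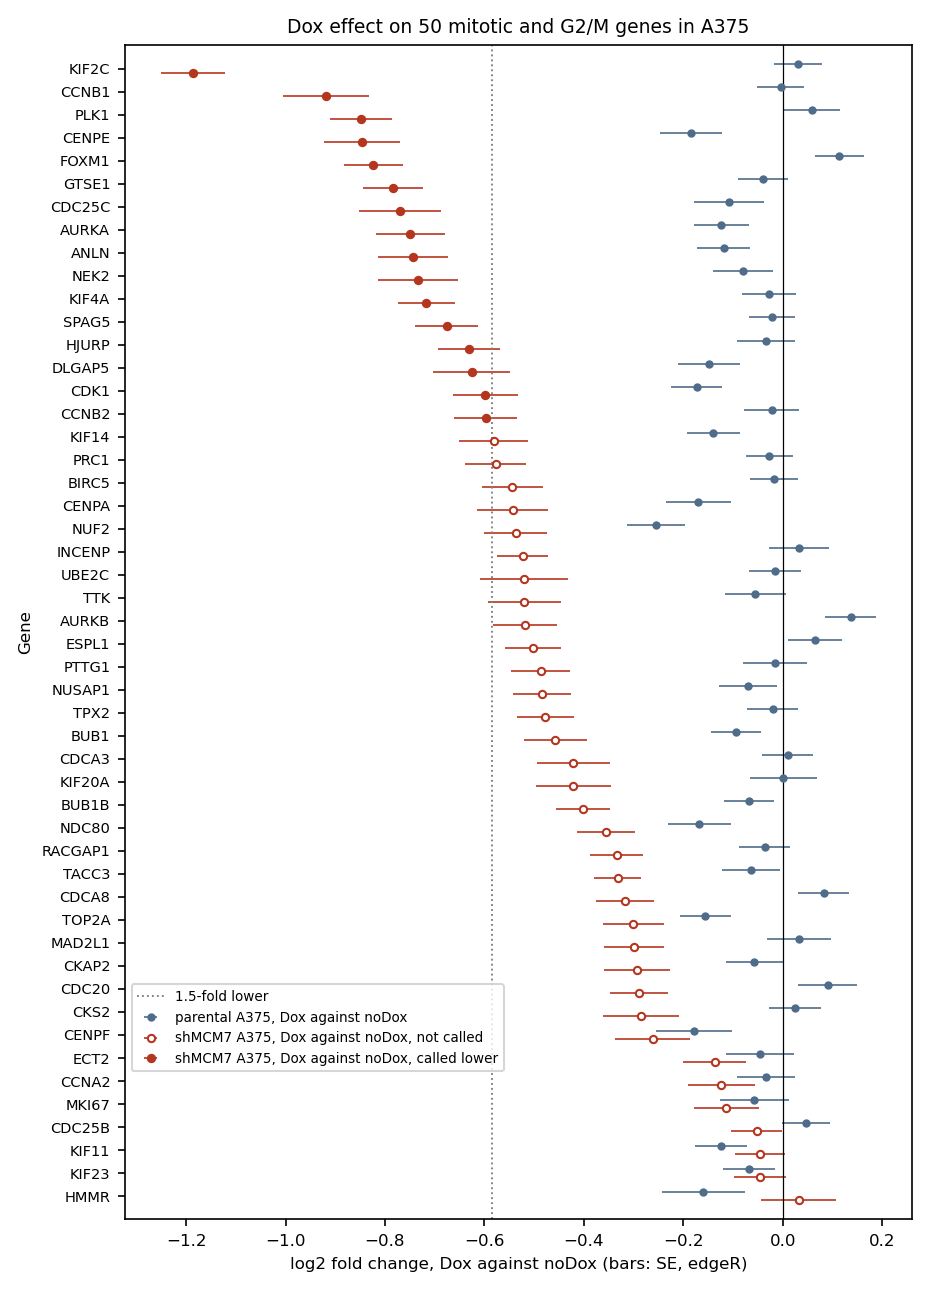
Log2 fold changes of Dox against noDox for each of the 50 genes in shMCM7 cells (red) and parental cells (blue) of A375, with SE bars from edgeR, ordered by the value in shMCM7 cells. The red points run from −1.19 for KIF2C to 0.032 for HMMR and are filled for the 16 genes called lower, while the blue points lie between −0.25 and 0.14; the dotted line marks a 1.5-fold decrease.

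With parental Dox cells as the reference, which avoids the uninduced shMCM7 libraries but shares the induced ones with the first comparison, 14 of the 50 genes were called lower (8.39% of 16086 genes) and 44 were lower at an FDR under 0.05 (24.8%). The median was −0.47. KIF2C had −1.20 ± 0.055 (SE, adjusted p = 1.7e-06), CCNB1 −0.90 ± 0.066 (SE, adjusted p = 1.3e-05), FOXM1 −0.87 ± 0.053 (SE, adjusted p = 5.15e-06), PLK1 −0.86 ± 0.064 (SE, adjusted p = 1.39e-05) and GTSE1 −0.76 ± 0.06 (SE, adjusted p = 1.72e-05). CCNB2, CDK1 and DLGAP5, called in the first comparison, were not called here, and INCENP was called here only, at −0.65 ± 0.054 (SE, adjusted p = 2.28e-05), a difference in calls that was not tested.

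The Dox effect in shMCM7 cells was then tested against that in parental cells, as an interaction term fitted to all 12 A375 libraries. Of the 50 genes, 14 were called lower (6.17% of 16334 genes) and 39 were lower at an FDR under 0.05 (16.5%), with a median of −0.44. The values with the smallest p were −1.22 ± 0.079 (SE, adjusted p = 1.85e-06) for KIF2C, −0.94 ± 0.074 (SE, adjusted p = 5.56e-06) for FOXM1, −0.91 ± 0.084 (SE, adjusted p = 1.23e-05) for PLK1, −0.75 ± 0.072 (SE, adjusted p = 1.57e-05) for GTSE1 and −0.69 ± 0.077 (SE, adjusted p = 4.31e-05) for KIF4A. AURKB was called by this term and in neither of the other tests, at −0.66 ± 0.08 (SE, adjusted p = 8.21e-05). Altogether 13 genes were called in all 3 tests that use the induced libraries, namely ANLN, AURKA, CCNB1, CDC25C, CENPE, FOXM1, GTSE1, HJURP, KIF2C, KIF4A, NEK2, PLK1 and SPAG5. These tests share libraries and are not independent of each other. CENPF and NUF2 had −0.085 ± 0.12 (SE, adjusted p = 0.623) and −0.28 ± 0.083 (SE, adjusted p = 0.0197), smaller than their changes in shMCM7 cells alone.

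The other genes of the pathway were counted in separate lists which, like the 50, were chosen with earlier results of these data known. Of 54 other mitotic genes, 49 had a lower fitted level in shMCM7 Dox than in shMCM7 noDox, and 9 were called lower (6.45% of all genes). At an FDR under 0.05, 45 were lower (22.4% of all genes), and the median was −0.42. The other 5 had a fitted value above 0, and 2 of these were higher at an FDR under 0.05. SMC2, a core subunit of condensin, was at 60.1, 68.0 and 61.2 CPM in the induced libraries and at 99.9 to 130.1 CPM in the other 9, with −0.85 ± 0.083 (SE, adjusted p = 9.82e-05). KNL1, the kinetochore scaffold for checkpoint proteins, was at 46.5, 51.9 and 45.9 CPM against 72.5 to 89.0, with −0.65 ± 0.063 (SE, adjusted p = 9.5e-05). The remaining 7 called were KIF18A, CENPW, SPC25, SKA1, PBK, PIMREG and FAM83D. WEE1, named after its values were seen, encodes the kinase that keeps CDK1 inactive. It was 1 of the 2 that were higher at an FDR under 0.05, with a log2 fold change of 0.50 ± 0.073 (SE, adjusted p = 0.000608).

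A further list of 18 genes held regulators of these promoters (MuvB subunits, MYB and E2F partners and NF-Y) and also FBXO5 and CDKN1A. Of the 18, 1 was called lower, beside the 6.45% of all genes, with 14 below 0 and a median of −0.17. This was CDKN1A, which encodes the CDK inhibitor p21, which favours assembly of DREAM. It was at 746.5, 727 and 737 CPM in the induced libraries, 1088, 1169 and 1184 in the uninduced ones, 1137, 1235 and 1161 in parental cells with Dox and 1163, 1097 and 1077 without. The induced libraries were the lowest, with −0.64 ± 0.055 (SE, adjusted p = 6.45e-05) and an interaction term of −0.72 ± 0.073 (SE, adjusted p = 2.24e-05). MYBL2, which encodes B-MYB and was named after its values were seen, had −0.52 ± 0.06 (SE, adjusted p = 0.000204) and was called lower by the interaction term, at −0.60 ± 0.082 (SE, adjusted p = 0.000164). Of 15 subunits of the anaphase promoting complex, edgeR called none. Of these, 4 had an unadjusted p under 0.05, beside 8288 of all 16087 genes tested, and the median was −0.0071. Of 35 genes of the G1/S transition, edgeR called none, and 21 had an unadjusted p under 0.05, beside the same 8288 of all 16087 genes. In this list 18 were lower at an FDR under 0.05, beside the 22.4% of all genes, and the median was −0.19. The lists were not tested against each other.

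Promoter elements were then set beside the size of the change. CCAAT, searched on both strands, occurred in 32 of 43 windows (74.4%), against 34.6% of the windows of all genes, and both elements together in 25 (58.1%), against 4.94%. Among windows of genes called lower, 9 of 14 (64.3%) held the CHR, as did 16 of 22 (72.7%) among those lower at an FDR under 0.05 with less than a 1.5-fold change, and 5 of 7 (71.4%) among the rest. The windows of KIF2C, CCNB1, CENPE, NEK2 and CDC25C, all called lower, had no TTTGAA, which says only that these letters are not there. TTCGAA, a variant of the CHR, was in 4.65% of the 43 windows, against 1.55% of all. Of 41 windows of other mitotic genes, 22 (53.7%) held the CHR, and of 26 windows of G1/S genes none did. The E2F site known as TTTSGCGC was in 4.65% of the 43 windows, 38.5% of those of G1/S genes and 1.44% of all. AURKA, BIRC5, FOXM1, RACGAP1, TPX2, TTK and UBE2C were not searched. These matches describe letters in a window and no binding was measured.

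**Figure D4:**
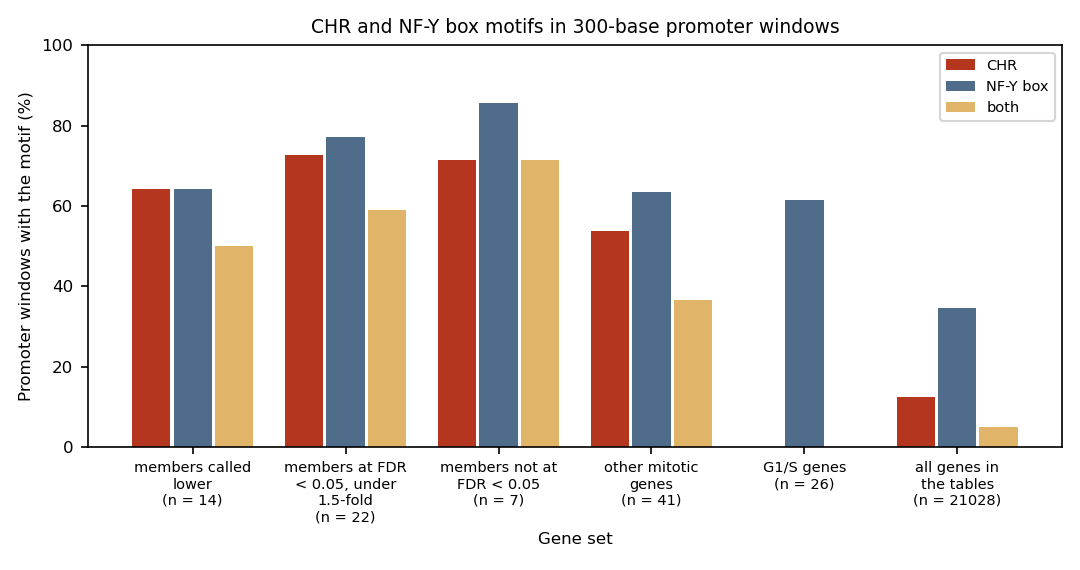
Bars give the percentage of 300-base promoter windows that hold the CHR (TTTGAA), the CCAAT motif bound by NF-Y (labelled NF-Y box) or both, in the 50 genes divided by their result in A375, in other mitotic genes, in G1/S genes and in all genes of the tables. The CHR bars of the 3 divisions stand at 64.3%, 72.7% and 71.4%, against 12.4% for all genes and 0% for G1/S genes.

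In A549 the same tests were run by label. Between shMCM7 Dox and shMCM7 noDox, edgeR and DESeq2 called none of the 50 genes, edgeR called 0% of 13550 genes, none of the 50 had an unadjusted p under 0.05 by either tool, and of all genes 61 did by edgeR and 51 by DESeq2. The median log2 fold change was −0.023. Each of these groups holds 1 of the 3 libraries with low MCM7. Without both, edgeR again called none. Between parental Dox and parental noDox, neither tool called any of the 50, and edgeR called 0% of 13494 genes. An unadjusted p under 0.05 was found for 5 of the 50 (6 by DESeq2), beside 1137 of all genes by edgeR. The median of the 50 was 0.0048.

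Library by library, the 3 with low MCM7 were apart from the others in many of the 50 genes. Since they were picked out by a measured value and not by a label, no mean or test was made over them. Their values, always in the order of the libraries labelled shMCM7 Dox 3, shMCM7 noDox 2 and parental noDox 2, lay below all other 9 libraries in 22 of the 50 genes (19.3% of 13643 genes), overlapped them in 27 and lay above them in 1 (19.7% of all genes). KIF2C was at 29.8, 34.2 and 30.03 CPM, against 49.0 to 64.0 in the other 9. CCNB1 was at 119.5, 128 and 126 CPM against 176 to 215, and AURKA at 59.4, 63.1 and 64.5 against 94.8 to 116. PLK1 was at 58.2, 62.3 and 51.9 CPM, below the 82.8 to 109 of the others. These genes of mitotic entry and spindle correction were thus low in the same libraries as MCM7, whatever their label. FOXM1 was at 148, 149 and 148 CPM against 184 to 215, ANLN at 159, 169 and 166 against 210.3 to 262 and GTSE1 at 23.7, 27.4 and 22.5 against 32.9 to 42.4.

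Chromosomal passenger genes, which were under the fold limit between induced and uninduced A375 cells, lay below in A549 for 3 of 4 genes (19.3% of all genes). AURKB was at 65.0, 69.8 and 63.1 CPM against 94.3 to 122, INCENP at 39.4, 40.1 and 32.6 against 50.7 to 70.9 and BIRC5 at 106, 112 and 111 against 145 to 163. CDCA8 overlapped. Genes of chromosome structure and proliferation overlapped too, with TOP2A at 705, 774 and 777 CPM against 633 to 792 and MKI67 at 303, 284 and 309 against 268 to 321, as did KIF11, KIF23, HMMR, ECT2 and CCNA2, which also overlapped in A375. CENPE, at 24.2, 27.8 and 27.9 against 27.1 to 38.1, and CCNB2, at 55.7, 55.7 and 55.1 against 53.3 to 66.5, were called lower in A375 but overlapped here. CDC25B was the gene that lay above, at 454, 444 and 429.6 CPM against 251 to 318, while in A375 its induced libraries were within the range of the others. Of the 16 genes called lower in A375, 10 (62.5%) were among those that lay below in A549, beside 22 of all 50 genes. Those 10 were 45.5% of the 22, and the other 12 were not called in A375. This overlap was not tested, and the like overlap over all genes was not counted. The median difference from parental noDox over the 50 genes, itself a mean that includes 1 low library, was −0.23, −0.12 and −0.18 on the log2 scale in the 3 libraries and −0.05 to 0.16 in the other 9.

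**Figure D5:**
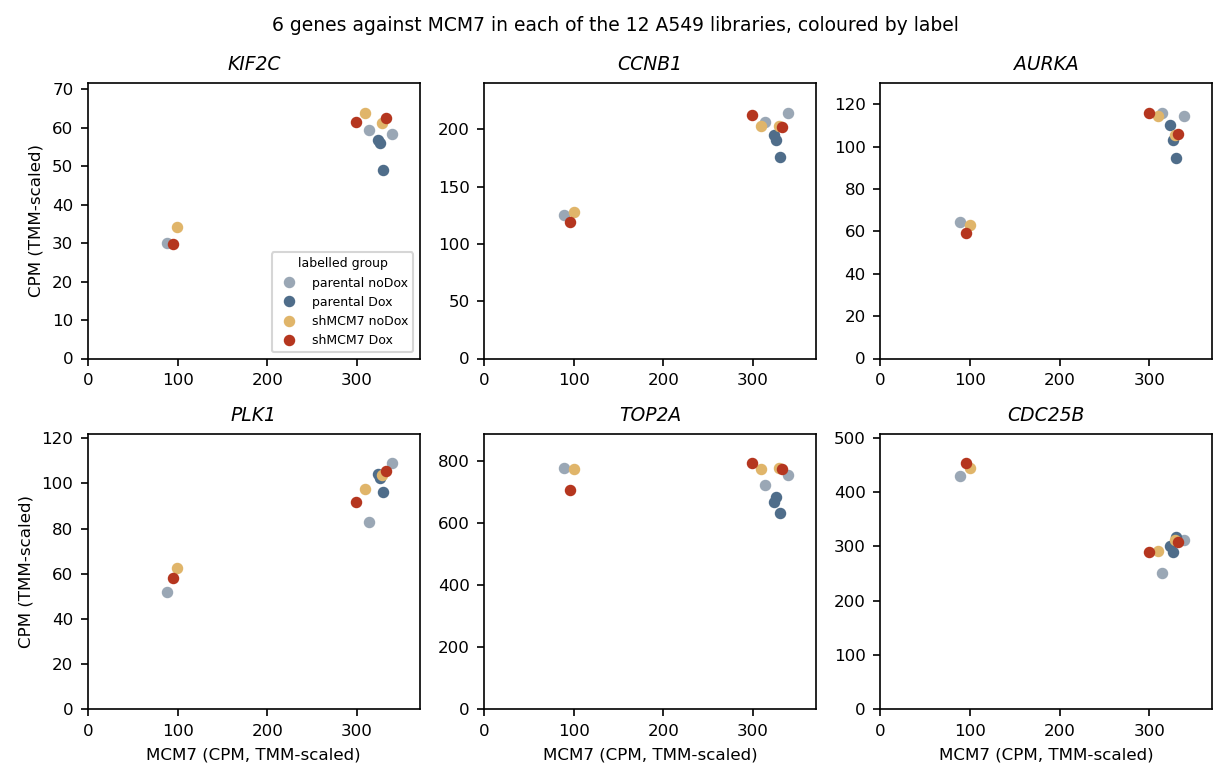
Each point is 1 of the 12 A549 libraries, coloured by its label, with its MCM7 level on the x axis and the level of the gene on the y axis, both in CPM from 0. In KIF2C, CCNB1, AURKA and PLK1 the 3 libraries with MCM7 under 150 CPM lie below the 9 with MCM7 over 250 CPM, in TOP2A they lie among them and in CDC25B they lie above.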

How the data were processed

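The authors sequenced RNA of A375 and A549 cells in 24 libraries. The submitters' processing notes name bcl2fastq 2.19, Trimmomatic, STAR 2.7.1, featureCounts, edgeR and GRCh38.p10. The annotation and strand setting used for counting are not given in the sources used here. The deposited values were raw, whole-number read counts per Ensembl gene, 1 table for each library, summing to between 146656792 and 283721575 for A375 libraries and between 17911338 and 23452823 for A549 libraries. Depth sets the counting error, and A549 resolves low genes less well.

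Groups came from the labels. Of 21386 identifiers, 21349 were named from GENCODE 29. Counts were tested with edgeR 4.0.16 (TMM, filterByExpr, glmQLFit and glmQLFTest, R 4.3.3) on the libraries compared, and on all 12 A375 libraries for the interaction of Dox and construct. Calls needed 3 limits together, namely 1.5-fold or more, p under 0.01 and an adjusted p (Benjamini-Hochberg FDR over all genes tested) under 0.05. Scripts were tested on simulated data first. Alternatives were DESeq2 1.42.0 and its size factors, other count filters, glmTreat, a shared fit, a replicate block and leaving out libraries. Motifs were searched with Python 3.11.15.

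The members and lists were chosen with earlier results of these data known. Named in full are the 2 genes of each of 10 role groups with the smallest p in A375 shMCM7 Dox against noDox, up to 5 called in each other comparison, those above 0, MCM7 and, of each other list, the 2 called with the smallest p in each direction. Same-numbered A375 libraries deviated together between shMCM7 Dox and noDox (r = 0.338, 0.195 and 0.34) and between the noDox groups (r = 0.514, 0.488 and 0.531). The numbers may thus pair the samples there, but the values given above come from fits without pairing. In the other comparisons not all 3 numbers did so, for example r = 0.278, −0.0997 and 0.51 between the parental A375 groups. No replicates agreed within counting noise (lowest chi-square per degree of freedom 1.95).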

Additional observations from a re-analysis of the deposited data

Results flagged for a closer look

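For 14 genes the effect of Dox differed between shMCM7 and parental A375 cells by edgeR's test of the interaction term, on 12 libraries, with a fold of at least 1.5 and an FDR under 0.05. The differences on the log2 scale (shMCM7 minus parental) were −1.22 for KIF2C, −0.94 for FOXM1, −0.92 for CCNB1, −0.91 for PLK1 and −0.75 for GTSE1. They were −0.69 for KIF4A, −0.67 for CDC25C, −0.66 for each of CENPE, AURKB, SPAG5 and NEK2, −0.63 for each of AURKA and ANLN and −0.60 for HJURP. Of all 16334 genes, 6.17% were called in this direction. MCM7 differed by −1.92 ± 0.35 (SE, adjusted p = 0.00111) in the same fit. In the uninduced shMCM7 library 1, where MCM7 was low, the median difference of the 50 genes from parental noDox was −0.051. Without that library 15 of the 50 genes were called, and the share of all genes in that fit is not given here.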

How the results depend on the processing

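The number of the 50 genes called lower kept within 1.5 times its value under DESeq2's size factors, DESeq2's test, both other count filters and the shared fit of 12 libraries, for all 7 comparisons in which each was run. It moved with the call rule in the 3 comparisons that use the induced A375 libraries. Against uninduced cells, 16 became 6 with glmTreat against a 1.5-fold change (CCNB1, CENPE, FOXM1, GTSE1, KIF2C and PLK1). With an FDR under 0.05 alone, the 16 became 43 (22.4% of all genes). Against parental Dox cells, 14 became 5 and 44 (24.8%), and for the interaction term, 14 became 4 and 39 (16.5%). By construction the first rule is stricter and the second drops the fold limit. The shares of all genes called with glmTreat, or with single libraries left out, are not given here. When single libraries were left out there were 12 to 19, 13 to 17 and 11 to 16 genes in these 3 comparisons and 0 to 0 in the other 4. Of the 16, 4 lost their call in some of the 6 fits of the first comparison by falling under the fold limit. Without shMCM7 Dox replicate 3 these were CCNB2 (−0.56), CDK1 (−0.54), DLGAP5 (−0.585) and HJURP (−0.57), without shMCM7 noDox replicate 3 CCNB2 (−0.55), CDK1 (−0.57) and DLGAP5 (−0.58), and without shMCM7 Dox replicate 1 CCNB2 (−0.584). KIF14, PRC1, BIRC5 and UBE2C gained a call in 3, 2, 1 and 1 fits. The cause was not tested. The log2 fold change of HMMR ranged from −0.026 (without A375 shMCM7 Dox replicate 2, a change of sign) to 0.113 in such fits. With the replicate block, 16, 0, 0, 14, 14, 0 and 0 genes were called, so the block changed no count, and where the numbers share no pairing it is given as a fit alone. Without the A549 libraries shMCM7 Dox 3 and noDox 2, an alternative chosen after seeing the data, 0 were called. Of 294 values of the 21 named genes under all alternatives, 272 kept their direction and side of the threshold. The depth of A549 and its labels limit what its comparisons can show.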
